A study of Schizosaccharomyces pombe with 16 samples.

Results

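Loss of the repressor Scr1 was examined in *Schizosaccharomyces pombe* cells that had been moved from glucose to sucrose. The comparison set the 4 *scr1*- libraries prepared from cells in YES with 3% sucrose against the 2 wild type libraries from the same medium, 6 of the 16 RNA-seq libraries of the series, chosen by genotype and medium alone. All cultures grew for 4 h at 32 °C in YES (a rich yeast extract medium) with 3% glucose, were washed in water and spent 4 h more in the sucrose medium. The wild type strain was labelled h-, the mating type of M cells. The first mutant was a disruption, *scr1*::*ura4*+, in a strain labelled h- with the alleles *ade6-m216*, *leu1-32* and *ura4-d18*. It thus also carried a *ura4* deletion and auxotrophic *leu1* and *ade6* alleles that the wild type lacked. The second was a complete deletion of the open reading frame, *scr1*::*kanMX6*+, taken from 2 strains, for which the labels give no mating type. Each genotype had 2 biological replicates. Both mutants were pooled as *scr1*-, and the sequencing batch (A, B or C) was a term in the fit. Batches A and B each held 1 wild type and 1 *scr1*::*ura4*+ library in sucrose, whereas both deletion libraries came from batch C, which held no wild type library in sucrose or glucose. Allele, auxotrophic markers and batch therefore cannot be told apart between the 2 mutants. The total count ranged from 14643221 to 18607823 per sucrose library. With TMM-scaled library sizes, 3 counts corresponded to 0.149 to 0.211 CPM (counts for every 1000000 counted in a library). Batch A was sequenced without strand information, and batches B and C with it.

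Marker genes were checked against the labels first. The *scr1* feature did not check the deletion, because the replaced open reading frame covered 1698 bases of a 3520-base feature and left 1489 bases before it and 333 after it. Its count was in fact higher in all 4 mutant libraries, at 718 and 530 in wild type, 2027 and 1611 in *scr1*::*ura4*+ and 1330 and 1717 in the deletion. A single library went against its label, and the strain behind it is uncertain. The labels give both *scr1*::*ura4*+ libraries as the same h- strain, whereas the study's supplementary sample list names another disruption strain for the second, recorded there as h+ with the same markers. That list also gives h+ strains for the second wild type and the first deletion library, both of which had M cell counts. The labels give strain D163 for that deletion library, and the study's methods describe D163 as h-. The M cell gene *mat1-Mc*, which specifies the minus mating type, had 392 and 475 counts in wild type, 495 in the first *scr1*::*ura4*+ library and 0 in the second, while the deletion libraries had 686 and 640. The pheromone gene *mfm2* likewise fell to 2.74 CPM in the library labelled *scr1*::*ura4*+ replicate 2 against 58.5 to 245 CPM in the other 5. That library had 113 counts of the mating-type locus feature SPMTR.01 where no other had more than 2. It had 5 counts of SPMTR.02, which was at 0 in every other library. It had 0 counts of SPMTR.03 (2 to 16 elsewhere) and 0 of SPMTR.04 (371 to 686 elsewhere), whose counts closely followed those of *mat1-Mc*. The summed level of the 9 M cell genes was 279 and 318 CPM in wild type, 624 and 242 CPM in *scr1*::*ura4*+ and 813 and 775 CPM in the deletion. The 4 P cell genes measured summed to 425 to 609 CPM in wild type and 539 to 818 CPM in the mutants, with no member at 0. Most of each sum was *sxa1*, at 405 to 792 CPM. *map3* was at 47.6 CPM in *scr1*::*ura4*+ replicate 2 against 12.3 to 14.7 CPM in the other stranded libraries. In the unstranded libraries *map3* was at 54.8 and 52.1 CPM. In *scr1*::*ura4*+ replicate 2, *sxa1* and *map1* lay within the range of the other stranded libraries, and *map2*, at 3.44 CPM, just above it. Counts of genes called are therefore given with and without that library. Of the strain markers, *ura4* stood at 112 and 111 CPM in wild type and 78.9 to 99.5 CPM in the mutants, and none of *ura4*, *leu1* and *ade6* passed the test.

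Scr1 is a C2H2 zinc finger protein of the Mig1 and CreA family, which represses genes for the use of other carbon sources while glucose is plentiful, in a process called carbon catabolite repression. It acts at promoters together with the Tup11, Tup12 and Ssn6 corepressors, and the activator Rst2 works on some of the same genes. Sucrose is split outside the cell by invertase into glucose and fructose, which then enter through the Ght family of hexose transporters.

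In sucrose, 49 protein-coding genes were higher and 5 were lower in *scr1*- than in wild type, of 5134 tested. A gene was called at an adjusted p below 0.05 in the quasi-likelihood test of edgeR, with Benjamini-Hochberg adjustment over all 6691 features tested, together with a log2 fold change past 1 in either direction. The calls made up 0.954% of protein-coding genes on the higher side and 0.0974% on the lower side. Over all protein-coding genes the median log2 fold change was 0.01, and 540 genes were higher and 284 lower at an unadjusted p below 0.05. The rises were often large. They lay between 1 and 2 on the log2 scale for 21 genes, between 2 and 3 for 15, between 3 and 4 for 7 and above 4 for 6. For 47 of the 49 genes every mutant library stood above both wild type libraries, an arrangement seen in 15.0% of all protein-coding genes, and the exceptions were SPCC1235.18 and SPAC806.11. For the 5 lower genes every mutant library stood below both, which 6.95% of all protein-coding genes did. The difference between *scr1*::*ura4*+ and wild type had the sign of the call within batch A and within batch B for all 54 genes. The calls were made from these same libraries, so this is not a separate check. The share of all protein-coding genes with the same sign in both batches was not counted. Without the library that went against its mating type, 43 genes were called higher and 3 lower, all of them among the 54. The wild type libraries mattered more, with 32 genes higher and 3 lower without replicate 1, and 21 higher and 3 lower without replicate 2.

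**Figure D1:**
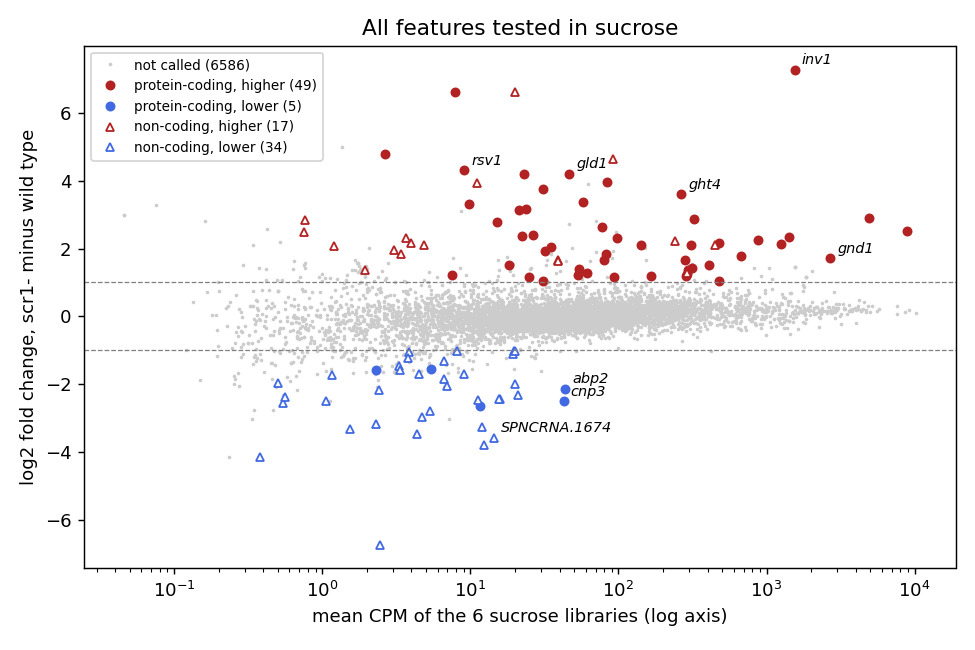
Log2 fold change of *scr1*- over wild type in sucrose (vertical axis) against the mean CPM of the 6 sucrose libraries (horizontal axis, log scale) for each feature tested, with filled circles for protein-coding genes and open triangles for non-coding features that were called, red for higher and blue for lower. The 49 protein-coding genes called higher spread from a log2 fold change of 1.03 to 7.28 (*inv1*), while the 5 called lower reach down to -2.65.

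The gene that moved furthest was *inv1*, and its promoter is shown with those of the 4 called genes that held the most copies of the motif bound by CreA-type repressors in a window from 250 bases before to 50 after the start. The motif was searched as 8 hexamers (CCGGAG or CCGGGG or CTGGAG or CTGGGG or GCGGAG or GCGGGG or GTGGAG or GTGGGG) on both strands, with overlapping matches counted. Each line gives the 250 bases before the gene start, 5′ to 3′ on the coding strand, from RefSeq's ASM294v3 assembly and annotation, with each motif in capitals on whichever strand it was read. The windows are III:1723184-1723433 for *inv1* (plus strand), III:241769-242018 for *gcd1* (minus strand), II:3498147-3498396 for SPBPB7E8.02 (plus strand), III:1812644-1812893 for *cgs2* (minus strand) and II:1751843-1752092 for *scr1* (plus strand).
inv1: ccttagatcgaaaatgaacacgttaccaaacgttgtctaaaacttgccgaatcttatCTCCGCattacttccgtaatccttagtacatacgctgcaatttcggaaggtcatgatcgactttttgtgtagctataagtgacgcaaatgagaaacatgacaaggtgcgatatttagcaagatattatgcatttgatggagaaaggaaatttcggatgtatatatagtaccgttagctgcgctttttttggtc
gcd1: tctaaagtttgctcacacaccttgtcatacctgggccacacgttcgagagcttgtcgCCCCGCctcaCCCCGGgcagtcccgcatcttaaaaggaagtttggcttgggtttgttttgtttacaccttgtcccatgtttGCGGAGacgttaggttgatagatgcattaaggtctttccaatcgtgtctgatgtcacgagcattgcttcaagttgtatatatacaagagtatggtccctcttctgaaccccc
SPBPB7E8.02: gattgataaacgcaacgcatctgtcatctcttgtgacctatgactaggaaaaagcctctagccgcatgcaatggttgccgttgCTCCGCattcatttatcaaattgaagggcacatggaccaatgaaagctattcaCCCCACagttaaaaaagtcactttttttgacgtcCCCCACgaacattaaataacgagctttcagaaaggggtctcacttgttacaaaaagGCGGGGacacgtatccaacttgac
cgs2: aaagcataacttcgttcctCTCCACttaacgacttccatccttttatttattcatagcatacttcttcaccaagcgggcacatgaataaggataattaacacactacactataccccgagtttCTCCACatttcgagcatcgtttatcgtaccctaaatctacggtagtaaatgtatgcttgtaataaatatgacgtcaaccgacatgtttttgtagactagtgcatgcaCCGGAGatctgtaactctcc
scr1: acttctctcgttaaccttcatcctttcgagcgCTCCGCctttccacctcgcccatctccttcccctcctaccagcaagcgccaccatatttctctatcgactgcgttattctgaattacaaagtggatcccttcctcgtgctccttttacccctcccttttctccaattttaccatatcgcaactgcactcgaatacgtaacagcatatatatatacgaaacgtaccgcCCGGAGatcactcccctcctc
These stretches held 1 motif for *inv1*, 3 for *gcd1*, 4 for SPBPB7E8.02, 3 for *cgs2* and 2 for *scr1*. In the window that also takes in the 50 bases after the start, 28 of the 49 higher genes (57.1%) had at least 1 motif, compared with 965 of 5103 tested protein-coding genes (18.9%). Over the 1000 bases before the start, 45 of the 49 (91.8%) had at least 1, compared with 50.5% of all, and 12 of them (24.5%) had 4 or more, compared with 1.71% of all. Both *gld1* and *gnd1* had 7 copies in that wider window. Of the 4 lower genes with an annotated start, 1 (25%) had a motif in either window. A match is a match of letters only, and occupancy was not measured in these libraries.

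Genes for both steps of sucrose use, cleavage and uptake of the hexoses, rose. *inv1*, which encodes the external invertase, was at 23.8 and 10.7 CPM in wild type, 1976 and 2603 CPM in *scr1*::*ura4*+ and 2406 and 2279 CPM in the deletion. No mutant library came near the wild type values, and the log2 fold change was 7.28 ± 1.0 (SE, adjusted p = 0.00163). This call was lost without wild type replicate 2 (adjusted p = 0.0695). Of the 5 disaccharide genes tested, *inv1* alone was called, and the median log2 fold change of the list was 0.31. The maltose alpha-glucosidase gene *agl1* had a log2 fold change of 2.49 ± 0.69 that did not pass the test (adjusted p = 0.0899), although its 4 mutant libraries, at 84.4 to 186 CPM, lay above the wild type values of 24.6 and 23.2 CPM.

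Of the 8 hexose transporter genes, 4 were called higher and none lower, with a median log2 fold change of 2.75 over the 8, compared with 0.01 over all protein-coding genes. *ght5*, the high-affinity glucose and fructose symporter, was at 1094 and 800 CPM in wild type, 6444 and 5995 CPM in *scr1*::*ura4*+ and 7248 and 7760 CPM in the deletion. All mutant libraries exceeded wild type by a wide margin, with a log2 fold change of 2.91 ± 0.32 (adjusted p = 0.000338). *ght4* gave 31.7 and 32.1 CPM in wild type against 457, 322, 422 and 318 CPM in the mutants, a rise of 3.60 ± 0.20 on the log2 scale (adjusted p = 5.58e-06). *ght1*, a high-affinity glucose symporter, stood at 82.7 and 59.2 CPM in wild type and 330 to 579 CPM in the mutants, with a log2 fold change of 2.88 ± 0.38 (adjusted p = 0.00115). Its call was lost without wild type replicate 2 (adjusted p = 0.0531). *ght3*, annotated as a gluconate symporter, rose from 16 and 17.7 CPM to between 97.6 and 118 CPM, a log2 fold change of 2.62 ± 0.16 (adjusted p = 8.37e-06). Its mutant libraries were the most alike of the 4 transporters. *ght6* was at 23.6 CPM in wild type replicate 1 and 0.369 CPM in replicate 2 against 42.8 to 127 CPM in the mutants, and its log2 fold change of 3.91 ± 1.09 did not pass (adjusted p = 0.0899). *ght2* and *ght8* had log2 fold changes of 0.64 and 0.85 and *ght7* of -0.62, with adjusted p between 0.0932 and 0.645.

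**Figure D2:**
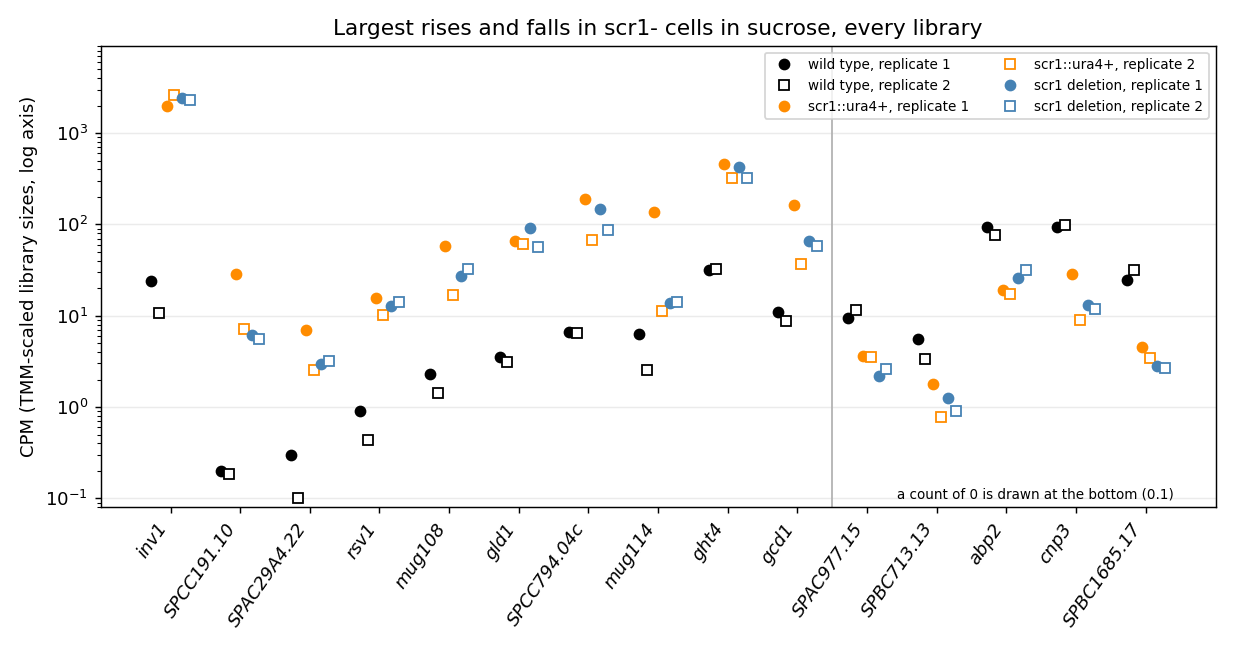
CPM on a log axis in each of the 6 sucrose libraries for the 10 called genes that rose furthest and the 5 that fell, all protein-coding, with black for wild type, orange for *scr1*::*ura4*+ and blue for the deletion, circles for replicate 1 and squares for replicate 2. In every gene the 4 mutant libraries lie on one side of both wild type libraries, and the orange circle stands apart from the other mutants for *mug114* (138 CPM) and SPCC191.10 (28.3 CPM).

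Some called genes are annotated to gluconate use and the pentose phosphate pathway. They were grouped after their values were seen, so the shared direction comes from the choice of members. Gluconate taken up by Ght3 is phosphorylated by gluconokinase and then oxidised by phosphogluconate dehydrogenase. *idn1*, the gluconokinase gene, was at 128 and 169 CPM in wild type and 340, 406, 375 and 360 CPM in the mutants, with a log2 fold change of 1.36 ± 0.15 (adjusted p = 0.00027). *gnd1*, the phosphogluconate dehydrogenase gene, rose from 1121 and 1275 CPM to between 2936 and 4034 CPM, by 1.71 ± 0.23 on the log2 scale (adjusted p = 0.00116). This call too was lost without wild type replicate 2 (adjusted p = 0.0653), and also without the batch term and with a replicate block in its place (highest adjusted p = 0.118 over the alternatives tried). In both genes the groups were separated with no overlap. *gcd1*, annotated by RefSeq as a glucose-6-phosphate 1-dehydrogenase, was at 10.8 and 8.79 CPM in wild type, 163 and 37.2 CPM in *scr1*::*ura4*+ and 66.4 and 58.6 CPM in the deletion. Its log2 fold change was 3.36 ± 0.59 (adjusted p = 0.0103), a call lost without either wild type library (highest adjusted p = 0.28 over the alternatives tried). Of the 5 pentose phosphate genes, *gcd1* and *gnd1* were called, and *zwf1*, the main glucose-6-phosphate dehydrogenase gene, had a log2 fold change of 0.66 ± 0.28 (adjusted p = 0.245).

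*gld1*, whose product oxidises glycerol at the start of its use as a carbon source, was called as well. It was at 3.53 and 3.13 CPM in wild type, 65.4 and 60.4 CPM in *scr1*::*ura4*+ and 90.5 and 56.1 CPM in the deletion, a log2 fold change of 4.21 ± 0.55 (adjusted p = 0.00113). The 2 alleles thus gave similar levels, all above wild type. The remaining 6 glycerol genes were not called, from *gut2* at 1.94 ± 0.78 (adjusted p = 0.225) to *dak2* at -0.97 ± 0.50 (adjusted p = 0.354). The galactose cluster gene *gal7*, a uridylyltransferase of the Leloir pathway, stood at 11.3 and 14.3 CPM in wild type and 32.1 to 53.9 CPM in the mutants, with a log2 fold change of 1.92 ± 0.35 (adjusted p = 0.0127). Its call was lost without either wild type library, without *scr1*::*ura4*+ replicate 1 and among stranded libraries. It was also lost with a replicate block (adjusted p = 0.0603) and without the batch term (adjusted p = 0.108). Its neighbours *gal10* and *gal1* had log2 fold changes of 2.71 ± 0.70 and 1.899 ± 0.53 with adjusted p of 0.0677 and 0.0908, although their mutant libraries did not overlap wild type. In glucose all 3 galactose genes were called higher.

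Central carbon metabolism moved little by comparison. None of the 13 glycolysis and gluconeogenesis genes and none of the 7 fermentation genes was called, with median log2 fold changes of 0.32 and 0.36. The fermentation genes ran from -0.21 to 2.20. With *scr1*::*ura4*+ alone 1 fermentation gene was called higher. With the deletion alone 1 fermentation gene was called lower and 1 glycolysis gene higher. With DESeq2, the 6 sucrose libraries only, the 12 glucose and sucrose libraries, or batches A and B, 1 glycolysis gene was called higher. The 12 libraries also gave 1 fermentation gene higher. In glucose 1 glycolysis gene was called higher. The hexokinase gene *hxk2* was highest among the glycolysis genes at 1.32 ± 0.39 (adjusted p = 0.101). *fbp1*, the fructose bisphosphatase gene of gluconeogenesis, was at 12 and 6.70 CPM in wild type and 6.32 to 12.8 CPM in the mutants, so the groups overlapped (log2 fold change -0.21 ± 0.61, adjusted p = 0.895). *adh4*, an alcohol dehydrogenase gene, passed the adjusted p (0.018) at a log2 fold change of 0.93 ± 0.18, short of the fold required. In the tricarboxylic acid (TCA) cycle 2 of 15 genes were called. *mdh1*, malate dehydrogenase, rose from 123 and 136 CPM to between 334 and 465 CPM, a log2 fold change of 1.43 ± 0.20 (adjusted p = 0.002). *cit1*, the citrate synthase gene, was at 101 and 179 CPM in wild type and 225, 368, 481 and 360 CPM in the mutants, with a log2 fold change of 1.18 ± 0.19 (adjusted p = 0.006). Both lost the call without either wild type library and among stranded libraries. *cit1* also lost it with a replicate block and without the batch term (adjusted p = 0.269), and *mdh1* with the deletion alone (adjusted p = 0.0596). The other 13 had log2 fold changes between -0.21 and 0.58.

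**Figure D3:**
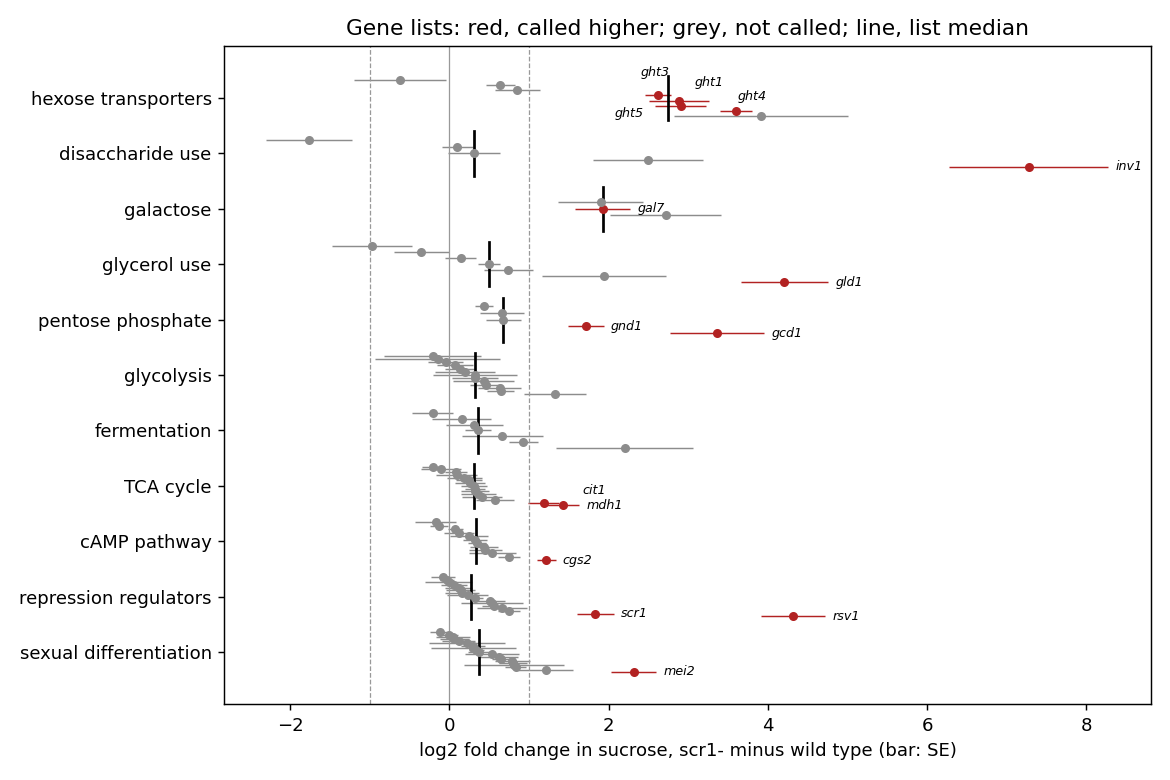
Log2 fold change of *scr1*- over wild type in sucrose, with its SE, for each member of 11 gene lists, red where the gene was called higher and grey where it was not, and with a black line at the list median. The hexose transporters have the highest median (2.75) and 4 called members, and the glycolysis and fermentation lists have none.

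Regulators of carbon use and of nutrient signalling included a few strong responders. Of the 16 carbon repression regulators, *rsv1* and *scr1* itself were called. *rsv1*, a zinc finger gene known for survival under glucose starvation, was almost silent in wild type at 0.896 and 0.430 CPM and stood at 15.7, 10.2, 12.9 and 14.1 CPM in the mutants, a log2 fold change of 4.31 ± 0.40 (adjusted p = 9.68e-05). *scr1* rose by 1.83 ± 0.23 on the log2 scale (adjusted p = 0.00104), counted over its whole feature. The activator gene *rst2* was at 97.3 and 83.0 CPM in wild type and 142 to 179 CPM in the mutants, and passed the adjusted p (0.0166) with a log2 fold change of 0.75 ± 0.14 but not the fold. *tup11*, *tup12* and *ssn6* had log2 fold changes of -0.03, 0.56 and 0.54 and were not called. In the cAMP pathway, which signals glucose in this yeast, *cgs2* was called out of 12 genes. This phosphodiesterase gene rose from 29 and 29.3 CPM to 67.4, 65.6, 61.4 and 69.4 CPM, a narrow band in every group, with a log2 fold change of 1.22 ± 0.12 (adjusted p = 0.000112).

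Among 19 sexual differentiation genes, *mei2* was called. *mei2* encodes the RNA-binding protein that starts meiosis, and stood at 30.5 and 19.5 CPM in wild type, 142 and 82 CPM in *scr1*::*ura4*+ and 179 and 137 CPM in the deletion. All mutant libraries were above wild type, with a log2 fold change of 2.31 ± 0.28 (adjusted p = 0.000691). The median of the list was 0.37, and 17 of its 19 members were above 0 against 2602 of 5134 for all protein-coding genes. *gpa1*, *ste11* and *pat1* passed the adjusted p at log2 fold changes of 0.83, 0.80 and 0.65, below the fold required. Close to *mei2* lies *omt3*, annotated as a lncRNA of meiosis-specific Smp foci and named after its values were seen, which rose from 5.62 and 5.35 CPM to between 100 and 181 CPM (log2 fold change 4.63 ± 0.55, adjusted p = 0.000537). None of the M cell or P cell genes was called. The summed M cell level given above was lowest in the library without *mat1-Mc*, and its part in the sexual differentiation values was not tested, but *mei2* stayed called without that library. The list median without it was 0.62.

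The other genes with the largest rises were mostly uncharacterised. SPCC191.10, which lies just upstream of *inv1*, had 4 and 3 counts in wild type and 525, 101, 91 and 86 counts in the mutants. The summed count per library size was 66.1 times as high (95% exact interval 31.9 to 165, counting error only), and the first *scr1*::*ura4*+ library was far above the other 3 mutants. Its call was lost without wild type replicate 1, among stranded libraries, with a replicate block and without the batch term (adjusted p = 0.286). SPAC29A4.22 had 6 and 0 counts in wild type and reached 6.96, 2.53, 2.94 and 3.20 CPM in the mutants, a ratio of summed counts per library size of 24.8 (95% exact interval 11.2 to 68.2). *mug108*, which overlaps it on the same strand, so that reads were counted for both, rose from 2.29 and 1.41 CPM to 58.5, 16.9, 27.2 and 32.8 CPM (log2 fold change 4.21 ± 0.37, adjusted p = 5.4e-05). The transporter gene SPCC794.04c was at 6.67 and 6.51 CPM in wild type and 189, 67.1, 149 and 87.4 CPM in the mutants, with a log2 fold change of 3.98 ± 0.42 (adjusted p = 0.000263). All 4 were free of overlap between the groups. *mug114* behaved less evenly, at 6.37 and 2.52 CPM in wild type and 138, 11.2, 13.8 and 14 CPM in the mutants (log2 fold change 3.77 ± 0.77, adjusted p = 0.0258). It overlaps *hxk2* on the opposite strand, the library at 138 CPM was the unstranded one, and reads of the 2 genes cannot be told apart there. Its call was lost without *scr1*::*ura4*+ replicate 1, without either wild type library, without deletion replicate 1, with the deletion alone and among stranded libraries. It was also lost with a replicate block and without the batch term (adjusted p = 0.623).

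The next genes lie outside the lists and were named after their values were seen. *plb1*, a lysophospholipase gene, went from 2268 and 1999 CPM to 10682, 10443, 14021 and 14240 CPM (log2 fold change 2.51 ± 0.33, adjusted p = 0.00113), a call lost without wild type replicate 2 (adjusted p = 0.057). *gdh1*, the NADP-dependent glutamate dehydrogenase gene, stood at 521 and 410 CPM in wild type and 3048, 1838, 1337 and 1365 CPM in the mutants (log2 fold change 2.33 ± 0.34, adjusted p = 0.00271). Its *scr1*::*ura4*+ libraries were the higher pair, and a difference between the alleles did not pass the test (adjusted p = 0.855). The *gdh1* call was lost with the deletion alone (adjusted p = 0.0812), without the batch term (adjusted p = 0.108) and with a replicate block (adjusted p = 0.0729). It was also lost without wild type replicate 2 and among stranded libraries. *wwm3* rose from 7.56 and 1.905 CPM to 55.3, 15.5, 17.8 and 29.8 CPM (log2 fold change 3.12 ± 0.39, adjusted p = 0.000898). The *wwm3* call was lost without the batch term (adjusted p = 0.31), with a replicate block (adjusted p = 0.0619) and among stranded libraries. The rest of the 49 included *gor1*, *pho842*, *isp5*, *ser3*, *gst1*, *mcs6*, *hri1*, *rgs1*, *msa1*, *ubp11*, *rbd3* and *rga3*, with log2 fold changes from 1.03 for *ubp11* to 2.39 for *rbd3*. None of the lists for stress (15 genes tested), iron uptake (10), phosphate (5), thiamine (7), adenine synthesis (9) or leucine synthesis (3) had a member called, and their median log2 fold changes ran from 0.09 to 0.62. Outside those lists, *pho842*, annotated as an inorganic phosphate transporter, was called higher (log2 fold change 1.66, adjusted p = 0.000338). So was SPCC794.03, annotated as a thiamine transporter (log2 fold change 1.51, adjusted p = 0.0369).

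The 5 genes that fell included a neighbouring pair. *abp2*, which encodes a protein that binds replication origins, was at 92.7 and 76.5 CPM in wild type, 19.1 and 17.2 CPM in *scr1*::*ura4*+ and 26 and 31.6 CPM in the deletion. It fell by 2.13 on the log2 scale (SE 0.15, adjusted p = 1.59e-05). *cnp3*, a centromere protein gene, fell from 93.4 and 99.2 CPM to 28.8, 9.05, 12.9 and 11.9 CPM, a log2 fold change of -2.50 ± 0.33 (adjusted p = 0.00127). *abp2* and *cnp3* diverge from a shared intergenic stretch, and the 4 non-coding features between and across them fell further than either gene. SPNCRNA.1672 went from 16.3 and 6.70 CPM to between 0.400 and 1.30 CPM (log2 fold change -3.46 ± 0.40, adjusted p = 0.000447). SPNCRNA.1674 was at 36 and 39.2 CPM in wild type and 2.47 to 3.20 CPM in the mutants, and SPNCRNA.113, which lies inside it, at 30.01 and 35.7 CPM against 1.97 to 2.35 CPM (log2 fold changes -3.58 and -3.78). SPNCRNA.1673, on the other strand, was at 47.3 and 15.5 CPM in wild type and 6.04, 0.842, 1.40 and 0.653 CPM in the mutants (log2 fold change -3.27 ± 0.56, adjusted p = 0.00858). Its call was lost without either wild type library, without either *scr1*::*ura4*+ library and with the deletion alone (adjusted p = 0.248). It was also lost with a replicate block and without the batch term (adjusted p = 0.296). These features overlap, so they share reads, and the 6 called features from II:4126318 to II:4133635 on the authors' ASM294v2 build are not 6 independent results. The features tested on either side of this stretch were not called. SPBC1685.17 fell from 24.6 and 31.5 CPM to 4.59, 3.44, 2.80 and 2.68 CPM, a log2 fold change of -2.65 ± 0.29 (adjusted p = 0.000338). The remaining 2, SPAC977.15 (9.36 and 11.4 CPM in wild type, 2.20 to 3.62 CPM in the mutants) and SPBC713.13 (5.62 and 3.38 CPM against 0.772 to 1.78 CPM), had log2 fold changes of -1.56 ± 0.32 and -1.59 ± 0.34. Their adjusted p of 0.0253 and 0.0328 was lost without either wild type library, and also without either *scr1*::*ura4*+ library.

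**Figure D4:**
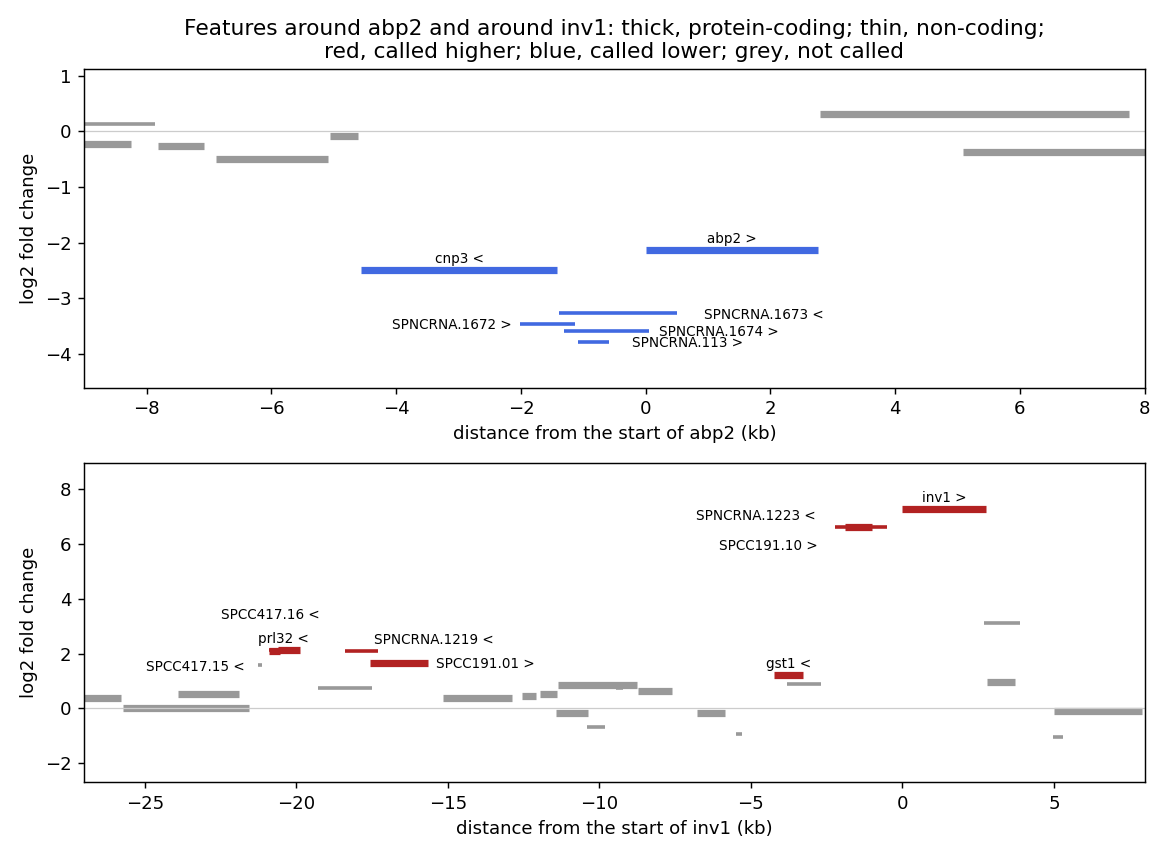
Log2 fold change (vertical axis) of the features tested around *abp2* and around *inv1*, drawn to scale along the chromosome as distance from the gene start in kb, thick for protein-coding genes and thin for non-coding features, with > and < for the strand. Around *abp2* the 6 blue features lie between -2.13 and -3.78, and around *inv1* the red features reach 7.28.

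Non-coding features were called in both directions, 17 higher (1.09% of 1557 tested) and 34 lower (2.18%). Their median log2 fold change was -0.12, and 107 were higher and 228 lower at an unadjusted p below 0.05. The groups did not overlap for 11 of the 17 and 30 of the 34, an arrangement found in 3.21% and 13.3% of all non-coding features in those directions. In sucrose, non-coding features took 9.73 to 9.97% of counts in the 2 unstranded libraries and 2.66 to 4.02% in the 4 stranded ones, and the part of library type in these calls was not tested beyond the fits among stranded libraries, which called 4 higher and 10 lower. Without the library that went against its mating type, 12 non-coding features were called higher and 17 lower. SPNCRNA.1223, antisense to SPCC191.10, rose from 7 and 8 counts to 740, 409, 389 and 371 (ratio 73.4, 95% exact interval 44.4 to 131). By contrast SPNCRNA.1121, antisense to *ght1*, was at 61.0 CPM in the unstranded *scr1*::*ura4*+ library and 0.653 to 1.26 CPM in the 3 stranded mutant libraries, against 2.59 and 0.246 CPM in wild type. SPNCRNA.129, beside *ura4*, had 292 counts in wild type replicate 1, 2 in *scr1*::*ura4*+ replicate 1 and 0 in the other 4 libraries, so its call rests on a single library. Within 1000 bases of a called protein-coding gene lay 11 of the 17 higher features, all with the direction of that gene, and 5 of the 34 lower ones, 4 with its direction. The same share over all non-coding features was not counted. Among the 11, SPNCRNA.1048, SPNCRNA.1115, SPNCRNA.275, *prl3* and *prl32* overlap the gene on its strand, so reads were counted for both. The 4 lower ones with its direction all lie at *abp2* and *cnp3*.

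Called features were also grouped by position. When features no more than 5000 bases apart were joined, 57 of the 105 called features fell into 18 runs of 2 or more, and 17 of those runs had a single direction. How often features in general would join in this way was not counted. Some runs are features that overlap on the same strand and share reads, such as SPAC806.11 with *prl3* and SPNCRNA.293 with SPNCRNA.1311. The largest run on chromosome III held SPNCRNA.1120, *ght1*, SPNCRNA.1121, *gcd1*, SPCC794.03 and SPCC794.04c, all higher. Another held *mug146*, SPCC1235.17, SPCC1235.18 and *ght5*, and the next *gst1*, SPNCRNA.1223, SPCC191.10 and *inv1*. From III:170340 to III:252103, 9 of 29 protein-coding genes tested were called higher, and from III:1702500 to III:1726164 it was 6 of 13, compared with 0.954% of all protein-coding genes. Both stretches start and end at called features, so these shares were set by the choice of the stretch. Chromosome III carried 19 of the 49 higher genes (38.8%) and 18.1% of the protein-coding genes tested. Of the 54 called protein-coding genes, 36 overlap another feature and 16 do so on the same strand, and the counting assigned such reads to each feature. These overlaps were not counted over all genes, and their part in the runs was not tested.

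Promoter lists from chromatin immunoprecipitation of TAP-tagged proteins in sucrose, made from other cultures, were set beside the calls as counts. Genes on the Scr1-bound list accounted for 24 of the 49 higher genes (49.0%) and 122 of the protein-coding genes tested (2.38%), so that 19.7% of the list was called higher. They included *inv1*, *ght1*, *ght3*, *ght4*, *ght5*, *gld1*, *rsv1*, *gcd1*, *gnd1*, *cgs2* and *scr1*. Among the higher genes off the list were *mei2*, *mdh1*, *cit1*, *gal7* and *idn1*. The Tup11-bound list held 26 of the 49 (53.1%) against 3.25% of genes tested, and the Rst2-bound list 7 (14.3%) against 1.40%. Of the 5 lower genes, *abp2* was on the Scr1-bound list and *cnp3* was not. The median log2 fold change over the 122 Scr1-bound genes was 0.42, so most of them were not called.

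The same mutants were compared with wild type in 3% glucose, in 6 other libraries of the same fit. There 62 protein-coding genes were called higher (1.21% of those tested) and 5 lower (0.0974%). Of the 49 genes higher in sucrose, 46 (93.9%) were among those 62, making up 74.2% of them, and SPAC1039.02, *msa1* and SPAC806.11 were not. All 5 lower genes were lower in both media. Of the non-coding features, 15 of the 17 higher in sucrose (88.2%) were among the 23 higher in glucose (1.48% of those tested), and 21 of the 34 lower (61.8%) among the 33 lower there (2.12%). Whether the size of the effect differed was tested as an interaction, and 1 protein-coding gene (0.0195%) passed. *ght3* rose by 2.62 in sucrose and by 4.33 in glucose on the log2 scale, a difference of -1.70 ± 0.21 (adjusted p = 0.0232). In wild type it was at 16 and 17.7 CPM in sucrose and 5.36 and 4.42 CPM in glucose, whereas the mutants had 91.1 to 111 CPM in glucose, so the mutant ranges overlapped between the media while the wild type values did not. The call did not survive the removal of any of the 6 sucrose libraries. *ght5* had a difference of -1.89 ± 0.38 that did not pass the adjusted threshold, and *inv1* gave 7.28 in sucrose and 7.45 in glucose. At an unadjusted p below 0.05, 20 protein-coding genes differed between the media.

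**Figure D5:**
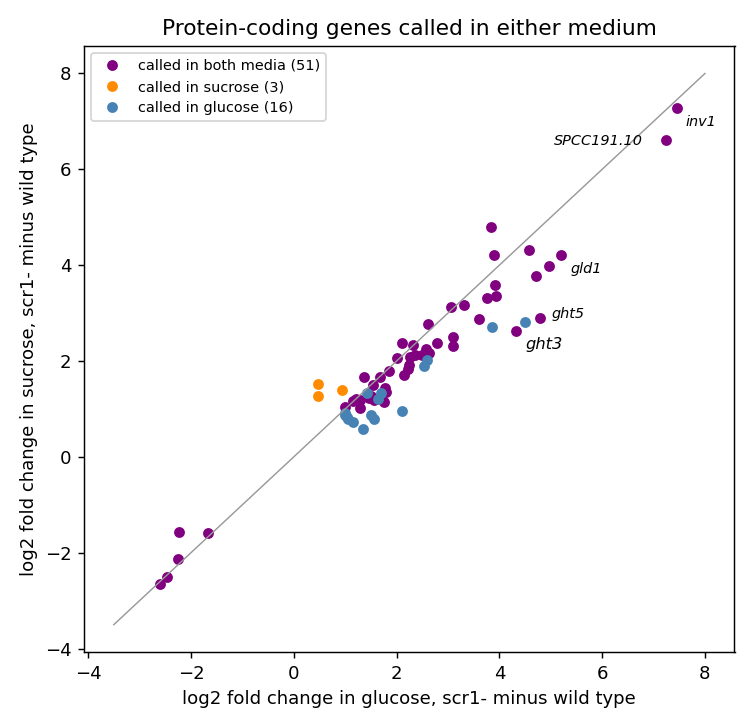
Log2 fold change of *scr1*- over wild type in sucrose (vertical axis) against that in glucose (horizontal axis) for the 70 protein-coding genes called in either medium, with the line of equal change. Of the 51 genes called in both media, *ght5* (2.91 in sucrose and 4.80 in glucose) and *ght3* (2.62 and 4.33) lie furthest below the line.

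The 2 alleles were also set side by side, with the caution that they share the 2 wild type libraries and differ in batch and markers. Against wild type, *scr1*::*ura4*+ alone gave 57 genes higher and 8 lower, and the deletion alone 49 higher and 25 lower. Of the genes called with the mutants pooled, 44 higher and 4 lower were among those of *scr1*::*ura4*+ alone. For the deletion alone it was 32 higher and 2 lower. *inv1* had log2 fold changes of 7.08 in *scr1*::*ura4*+ and 7.72 in the deletion, *ght4* of 3.60 and 3.61, and *rsv1* of 4.26 and 4.64. *mei2* gave 2.15 and 3.09, *ght1* 2.66 and 3.83, and *abp2* -2.22 and -1.76. In this fit batch C was tied to A and B only through wild type libraries in media with glycerol. The gaps between alleles therefore also hold a batch estimate taken from other media. *ght1*, for example, stood at 579 and 330 CPM in *scr1*::*ura4*+ and at 435 and 443 CPM in the deletion. Tested directly, 32 features differed between the alleles past the threshold, 20 of them protein-coding (0.39%) and 12 non-coding (0.771%). That count fell to 0 with library totals, without the batch term or with a replicate block, to 0 without *scr1*::*ura4*+ replicate 1 or either deletion library, and to 1 without *scr1*::*ura4*+ replicate 2. None of the 32 was among the features called between *scr1*- and wild type.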

How the data were processed

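Total RNA was extracted with hot phenol, depleted of ribosomal RNA and sequenced from TruSeq libraries. Per the labels and the study's methods, the authors processed reads with CASAVA 1.8.4, cutadapt 1.9.1 and FastQC, aligned them with TopHat2 2.1.1 to the ASM294v2 genome and counted them per feature with featureCounts 1.5.2, with multimapping and overlapping reads assigned to every feature they hit. The deposited values are these raw counts, 1 column per library, 7019 features, with no normalization. Reads from overlapping genes and near-identical copies are therefore shared, and in unstranded batch A antisense partners cannot be separated.

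Counts were fitted with edgeR 4.0.16 in R 4.3.3 (quasi-likelihood test, TMM scaling, filterByExpr with a minimum count of 10) over all 16 libraries in 6 groups with sequencing batch as a covariate, as the study pooled the mutants and modelled batch. The fit had 8 residual degrees of freedom and kept 6691 features. CPM values use TMM-scaled library sizes, and within-batch differences are of log2 CPM with a prior count of 2. The interaction came from the same fit, and the allele comparison from one with the 2 mutants as separate groups. DESeq2 1.42.0 was an alternative. Before use the scripts were tested on simulated data. Replicates are described as biological, but nothing gives separate dates for them, so p-values measure only the spread between these libraries. Intervals and floors cover counting error only, since no molecular identifiers were used.

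Genes were named by rule: marker genes, the 10 largest rises and 5 largest falls among called protein-coding genes without overlap and with the same sign within both batches, called members of the carbon, cAMP, regulator and sexual differentiation lists, and genes whose effect differed between media. Other features named are said to have been chosen after their values were seen. The comparison, the members and the lists were chosen with earlier results of these data known. Gene names and promoters were taken from RefSeq's ASM294v3 annotation, with 6845 of the 7019 features matched by identifier; its coordinates are given only for sequences and all others are those of the deposited table. The deleted part of *scr1* was placed by the homology arms of the deletion oligonucleotides on ASM294v3. Alternatives were another scaling, filter, tool, covariate, set of libraries and allele, and leaving out each sucrose library in turn. The 2 replicate numbers did not pair the groups: deviations from group means correlated at 0.91 between wild type and *scr1*::*ura4*+, which share batches, and at -0.08 between wild type and the deletion and at -0.08 between the mutants.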

Additional observations from a re-analysis of the deposited data

Results flagged for a closer look

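Of 44 features examined in the 4 *scr1*- libraries in sucrose, 8 had 1 library far from the other 3, and chance alone gives such a library in about 1 of 20 groups of values. For 6 of the 8 it was *scr1*::*ura4*+ replicate 1, which is the only unstranded mutant library in sucrose, and the part of library type was not tested. SPNCRNA.1121, antisense to *ght1*, was at 61.0 CPM there against 0.653 to 1.26 CPM in the other 3, *mug114*, antisense to *hxk2*, at 138 CPM against 11.2 to 14 CPM, and SPCC191.10, antisense to SPNCRNA.1223, at 28.3 CPM against 5.61 to 7.09 CPM. SPAC29A4.22, which overlaps *rga3* on the opposite strand, was at 6.96 CPM against 2.53 to 3.20 CPM, and SPNCRNA.1673 at 6.04 CPM against 0.653 to 1.40 CPM. SPNCRNA.129 was at 0.108 CPM, from 2 counts, where the others had none. With the other 3 libraries at 0 any count would have been flagged, so nothing follows from that flag. In the remaining 2 cases another library stood apart. *scr1* was at 88.8 CPM in deletion replicate 1 against 109 to 113 CPM, and SPNCRNA.780 was at 2.04 CPM in *scr1*::*ura4*+ replicate 2 against 1.47 to 1.51 CPM.

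The effect of *scr1* loss on *ght3* differed between media by -1.70 on the log2 scale in the interaction test (adjusted p = 0.0232), with the values given above.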

How the results depend on the processing

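Of 44 named features followed through the alternatives, all but *ade6* kept their direction, and *ade6*, which was not called, gave -0.29 with the deletion alone. Among list members not followed in this way, *fbp1* gave 0.02 with *scr1*::*ura4*+ alone, and *ght7* 0.14 and *zwf1* -0.23 with the deletion alone, each opposite to its value above. With stranded libraries only, 22 of 37 called features among the 44 lost the call. Protein-coding genes called higher and lower numbered 75 and 14 with DESeq2, 83 and 19 with the 6 sucrose libraries only, 93 and 26 with the 12 glucose and sucrose libraries, 83 and 17 with batches A and B in these media (added after seeing the data), and 82 and 19 without a fold minimum. They numbered 25 and 3 without the batch term and 13 and 4 with stranded libraries only. Lower genes numbered 8 with library totals as the scaling, which moved the median log2 fold change of all features by -0.18, 8 with *scr1*::*ura4*+ alone and 25 with the deletion alone. With 1 sucrose library left out the counts ran from 21 to 49 higher and from 3 to 4 lower, lowest without wild type replicate 2 (21) and replicate 1 (32), and 19 higher and 3 lower genes were called each time. A fit with a replicate block instead of a batch term called 27 genes higher and 3 lower, 7 non-coding features higher and 17 lower, and 0 features different between the alleles. SPAC29A4.22, SPCC1235.01, SPCC794.04c, *ght3*, *ght4*, *msa1*, *mug108*, *rbd3* and *rsv1* were called higher, and SPBC1685.17 and *abp2* lower, in all 19 refits.

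Non-coding features higher numbered 37 with DESeq2, 7 without the batch term, 47 with the 12 libraries, 4 with stranded libraries, 37 with the deletion alone, 28 with p-values adjusted within feature types, and 8 to 17 with a library left out. Lower ones numbered 52 with library totals, 58 with DESeq2, 11 without the batch term, 68 with the 6 sucrose libraries, 106 with the 12, 10 with stranded libraries, 14 with the deletion alone, 82 with batches A and B, and 10 to 25 with a library left out. The interaction called 2 genes with DESeq2 and with the 12 libraries, and 0 with stranded libraries, either allele alone, batches A and B, or any sucrose library left out. The allele comparison called 166 features with DESeq2, 0 with library totals or without the batch term, and 0 to 1 with a mutant library left out. The causes of these changes were not tested. A count of 0 in a sucrose library allows up to 0.149 to 0.211 CPM with TMM-scaled library sizes.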
